A study of Homo sapiens with 3 samples.

Results

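Interferon-stimulated genes and RNA sensors were examined in LNCaP cells that had been transfected with small interfering RNA (siRNA). LNCaP is an established human cell line from a prostate carcinoma metastasis. The set was chosen as a list of 39 named genes, and 38 of them were found among the 18417 genes measured, each on 1 probe set that names that gene alone. STAT2, a partner of IRF9 in interferon signalling, is not analysed here.

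The study holds 3 Affymetrix arrays, all of LNCaP cells collected 72 hours after transfection with the reagent RNAiMAX. The control array (n = 1) carried a negative control siRNA, and the chimera siRNA arrays (n = 2) carried siSE1 or siSE2, both made to target SLC45A3-ELK4, which joins sequence of adjacent genes in 1 RNA. The study asks what targeting this transcript changes; the genes described here ask a side question, whether cells given the targeting siRNAs differ from those given the control siRNA in the genes that answer foreign RNA. On the array titled siSE2, 1 label names siSE1 as the siRNA and the others name siSE2; the title was followed. No untransfected array was analysed here, so a response common to every transfection, the control included, cannot be told apart from no response. Nothing says that the arrays came from separate cultures, so p-values measure only the spread between these arrays, which may be technical. With 1 control array, each gene's own spread is the gap between siSE1 and siSE2, which are titled as different siRNAs.

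As background, cells detect foreign double-stranded RNA with sensors in the cytoplasm (RIGI, IFIH1, DHX58) and in endosomes (TLR3). The sensors signal through adaptors such as MAVS to IRF factors that switch on interferon genes. Secreted interferon binds its receptor, the kinases JAK1 and TYK2 pass the signal on, and a complex that holds STAT2 and IRF9 binds a DNA element called ISRE in front of many interferon-stimulated genes. Transfected siRNA is itself double-stranded RNA, and interferon-stimulated genes are commonly read as a check for such a response. LNCaP cells have been described as defective in JAK1 and poorly responsive to interferon.

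The interferon-stimulated response element, ISRE, is shown first, because its letters are in the windows of 21 of the 31 members that have one. RefSeq promoter windows (GRCh38.p14, 250 bases before to 50 bases after a start site) were found for 31 of the 39 listed genes. The letters searched on both strands for ISRE were GAAANNGAAA. They occurred in 21 of these 31 genes (67.7%), against 4.38% of all 27305 genes with a window. The letters of the GAS element, TTCNNNGAA, which reads the same on both strands, occurred in 9 of the 31 genes (29.0%), against 9.38% of all genes. A core of ETS factors such as ELK4, CCGGAAGT, searched on both strands, occurred in 0 of the 31 genes, against 4.95% of all genes, so no ISRE match overlapped one. A match describes the letters and does not show that a factor binds.

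The members with the 6 lowest and the 4 highest mean differences from the control are printed below, since the later results turn on them. Each line holds 30 bases of the gene's own strand, read toward the gene, with the ISRE letters nearest the start site in capitals; in IFIT5, TLR3 and PARP9 the element runs on the other strand, so the capitals begin with T. Distances are counted from the first capital to the start site, so in IFIT5 and TLR3 the capitals span the start site.
SAMD9 (chr7:93118096-93118125, minus strand, 136 bases upstream of the start): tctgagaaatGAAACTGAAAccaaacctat
IFIT5 (chr10:89414554-89414583, plus strand, 4 bases upstream): atttcttaagTTTCAGTTTCtgagcgctcg
OAS3 (chr12:112938452-112938481, plus strand, 12 bases upstream): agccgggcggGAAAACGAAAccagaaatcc
TLR3 (chr4:186069142-186069171, plus strand, 4 bases upstream): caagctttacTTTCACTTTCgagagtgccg
PARP14 (chr3:122680800-122680829, plus strand, 29 bases upstream): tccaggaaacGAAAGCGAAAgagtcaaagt
PARP9 (chr3:122564322-122564351, minus strand, 41 bases upstream): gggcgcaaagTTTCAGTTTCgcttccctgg
ISG15 (chr1:1013380-1013409, plus strand, 107 bases upstream): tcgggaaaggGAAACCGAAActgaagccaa
BST2 (chr19:17405735-17405764, minus strand, 124 bases upstream): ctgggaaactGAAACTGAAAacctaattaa
ISG20 (chr15:88638937-88638966, plus strand, 69 bases upstream): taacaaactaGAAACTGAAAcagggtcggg
IFI44L (chr1:78620365-78620394, plus strand, 73 bases upstream): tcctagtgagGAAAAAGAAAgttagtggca
All 10 hold the element, those that read lower on the siRNA arrays as well as those that read higher. Several other members hold more than 1 match: IFIT3 has 4 over its 2 windows, and IFI6, IFIH1 and HERC5 have 3 each. STAT2, IRF9, RIGI, MAVS, OAS1, CMPK2, HERC6, SAMD9L, IFI35 and XAF1 have a window without these letters.

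No tested member passed the test in either direction. Of the 17 members above the level filter (a mean over the 3 arrays of at least 5.12 on the log2 scale), 0 rose and 0 fell by limma with Benjamini-Hochberg adjustment over the 12892 genes tested, where 0.248% of genes rose and 0.714% fell. At an unadjusted p under 0.05 by limma, ISG15 and ISG20 were higher (2 of 17, against 6.46% of genes tested) and OAS3, PARP9 and PARP14 were lower (3 of 17, against 11.3%). The lowest adjusted p of a member was 0.0929 (limma). The other 21 members lay below the filter and are called dim; their values are given as a description, with errors from a fit without the filter.

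The median difference of the 17 tested members was -0.065 (log2, siRNA minus control; -0.069 with siSE1 and -0.12 with siSE2), and that of all genes tested was -0.019. Over all 38 members measured it was -0.08, with quartiles of -0.23 and 0.19, beside 0.012 for all genes measured. Both siRNA arrays read above the control for 12 members, against 39.9% of all genes measured, and below it for 19, against 36.3%. The control lay between the siRNA arrays for 7 of the 38 members and for 4385 of the 18417 genes measured. The siSE1 and siSE2 differences share the control array, so their common direction is partly fixed by that array. In bulk RNA, fewer expressing cells and less RNA per cell cannot be told apart.

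By size alone, SAMD9 was the 1 member at least 1.5-fold lower with both siRNAs, against 1.17% of all genes measured, and 0 members were that much higher, against 0.532%. With at least 1 siRNA, 4 members were 1.5-fold lower (SAMD9, IFIT5, TLR3 and PARP9), against 4.35%, and 0 were 1.5-fold higher, against 2.31%. With 1 control array, an exact permutation test of a single gene cannot go below p = 0.333, so the limma calls rest on a spread pooled across genes and 1 residual degree of freedom.

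**Figure D1:**
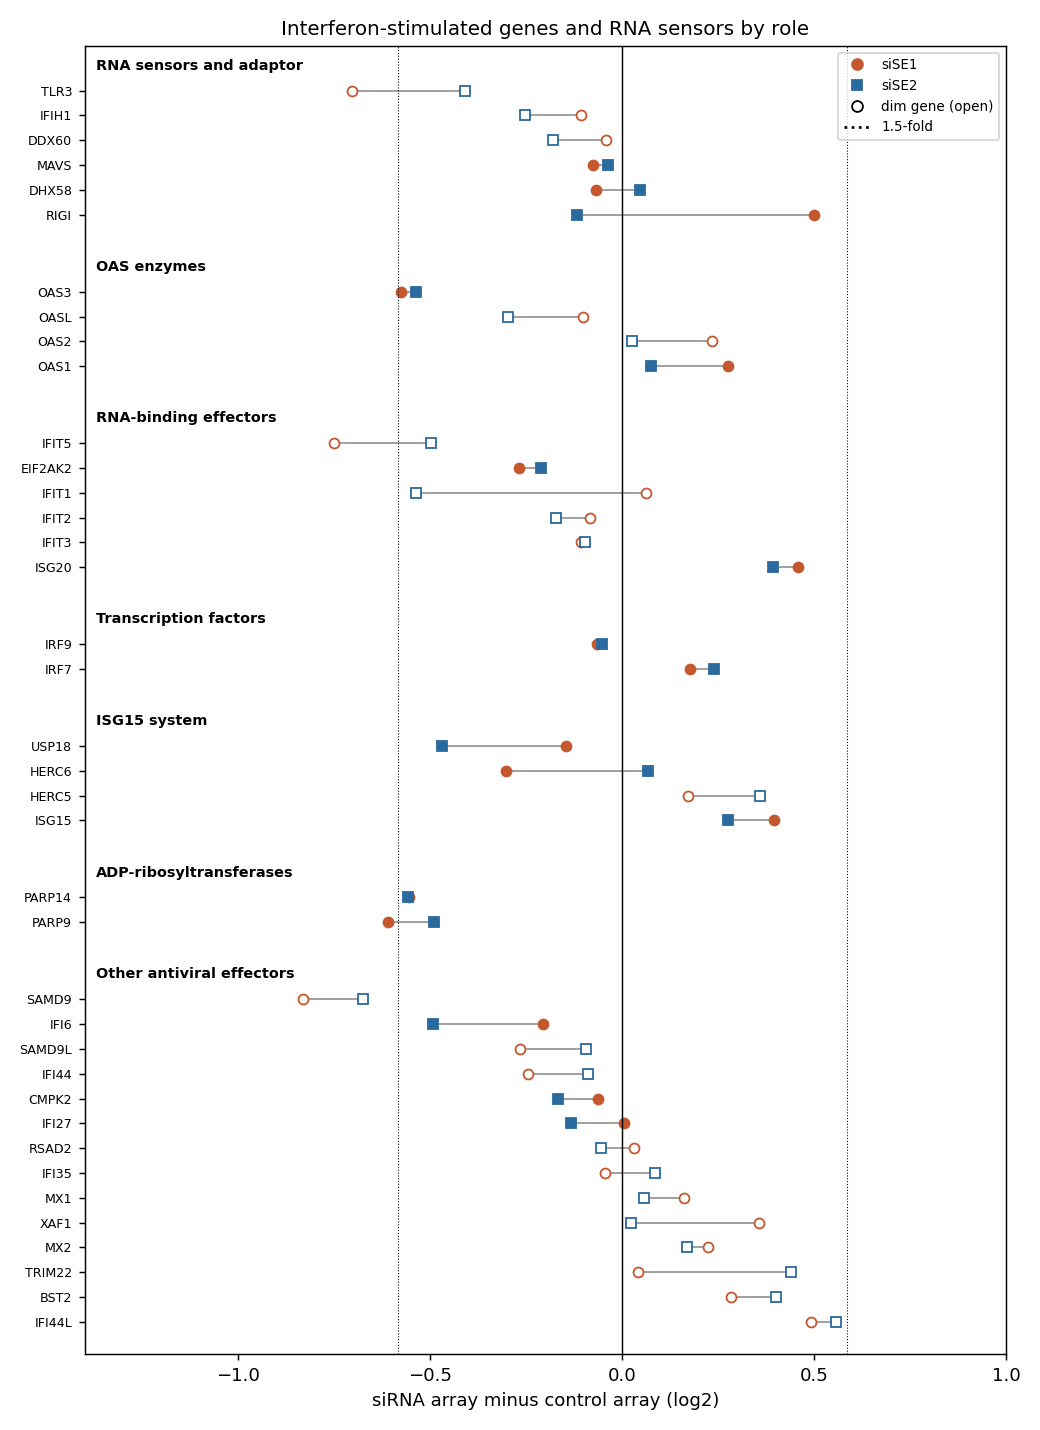
Difference of each siRNA array from the control array (x axis, log2) for the 38 members measured, grouped by role (y axis). Circles are siSE1, squares siSE2, open symbols dim genes, and dotted lines mark 1.5-fold. SAMD9 alone lies beyond a dotted line with both siRNAs, while 7 members, RIGI, IFIT1 and HERC6 among them, have their symbols on opposite sides of 0. The same held for 4385 of the 18417 genes measured, where the control lay between the siRNA arrays.

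RNA sensors came first in the order of the pathway, and none passed the test. TLR3, the endosomal sensor of double-stranded RNA, read 5.48 (control), 4.78 (siSE1) and 5.07 (siSE2) on the log2 scale. Both siRNA arrays lay below the control, by 0.56 ± 0.17 on average (SE from the fit without the filter, n = 2 against 1; limma, adjusted p = 0.230, the one fit that tested it). TLR3 was dim, with a mean level 0.01 under the filter.

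RIGI, the helicase that recognises short RNA duplexes and RNA ends carrying triphosphates, read 5.92, 6.42 and 5.81 on the control, siSE1 and siSE2 arrays. It was higher with siSE1 by 0.50 and lower with siSE2 by 0.12, so the control lay between the siRNA arrays, and the mean difference was 0.19 ± 0.22 (limma, adjusted p = 0.698). The gap of 0.62 between siSE1 and siSE2 was larger than the gap of 99.0% of all genes measured. With 1 array per siRNA that gap has no test.

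MAVS, the mitochondrial adaptor of the cytoplasmic sensors, read 7.91, 7.83 and 7.87, a difference of -0.06 ± 0.14 whose interval ran from -0.37 to 0.26 (95%, unadjusted), and its sign turned with quantile normalization, to 0.0043. DHX58, a regulator of RIGI and IFIH1 signalling, read 5.41, 5.34 and 5.46 (-0.012 ± 0.14). IFIH1, the sensor of long double-stranded RNA, read 4.61, 4.50 and 4.35, and DDX60, a helicase linked to RIGI, read 4.24, 4.20 and 4.06. Both were dim, and both had the siRNA arrays slightly under the control.

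The OAS enzymes make oligoadenylates when they meet double-stranded RNA. OAS3, the largest of the family, read 6.96 (control), 6.39 (siSE1) and 6.43 (siSE2). The siRNA arrays were close together and both under the control, a difference of -0.56 ± 0.14 (1.47-fold lower; 95% interval -0.87 to -0.24; limma, adjusted p = 0.0929), which did not pass. OAS1 and OAS2 lie beside OAS3 on chromosome 12 and did not share its direction. OAS1 read 6.33, 6.61 and 6.41 (0.18 ± 0.15; limma, adjusted p = 0.581), and OAS2, a dim gene, read 4.78, 5.02 and 4.81. OASL, a family member without the enzymatic activity, was dim at 5.24, 5.14 and 4.94.

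Among proteins that act on RNA, ISG20 was the highest of the tested members. ISG20, an exonuclease that degrades viral RNA, read 6.08 (control), 6.54 (siSE1) and 6.47 (siSE2). Both siRNA arrays lay above the control, by 0.42 ± 0.14 (1.34-fold; 95% interval 0.11 to 0.74; limma, adjusted p = 0.171), without passing. EIF2AK2, the kinase PKR that halts translation on binding double-stranded RNA, read 7.64, 7.37 and 7.43, a difference of -0.24 ± 0.14 (limma, adjusted p = 0.412).

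The 4 IFIT genes, whose proteins bind RNA and block its translation, were all dim. IFIT5 read 5.25 (control), 4.49 (siSE1) and 4.75 (siSE2), with both siRNA arrays under the control by 0.63 ± 0.16 on average (SE from the fit without the filter; limma, adjusted p = 0.189, the one fit that tested it). IFIT1, its neighbour on chromosome 10, read 4.44, 4.50 and 3.90: siSE1 lay 0.061 above the control and siSE2 lay 0.54 below it. IFIT2 read 4.65, 4.56 and 4.47 and IFIT3 read 4.25, 4.14 and 4.15, with differences of -0.13 and -0.10. No IFIT gene was higher on average with the siRNAs.

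PARP9 and PARP14, members of the ADP-ribosyltransferase family, read alike, lower on both siRNA arrays. PARP14 read 6.69 (control), 6.13 (siSE1) and 6.13 (siSE2). The siRNA arrays differed from each other by 0.0022 and from the control by -0.56 ± 0.14 (1.47-fold lower; 95% interval -0.87 to -0.24; limma, adjusted p = 0.0929). PARP9 read 6.51, 5.90 and 6.02, a difference of -0.55 ± 0.14 (1.46-fold lower; limma, adjusted p = 0.0992). Neither passed the test. DTX3L, the ubiquitin ligase that partners PARP9 and lies next to it on chromosome 3, read 8.01, 7.45 and 7.77, a difference of -0.40 ± 0.17 (limma, adjusted p = 0.254).

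**Figure D2:**
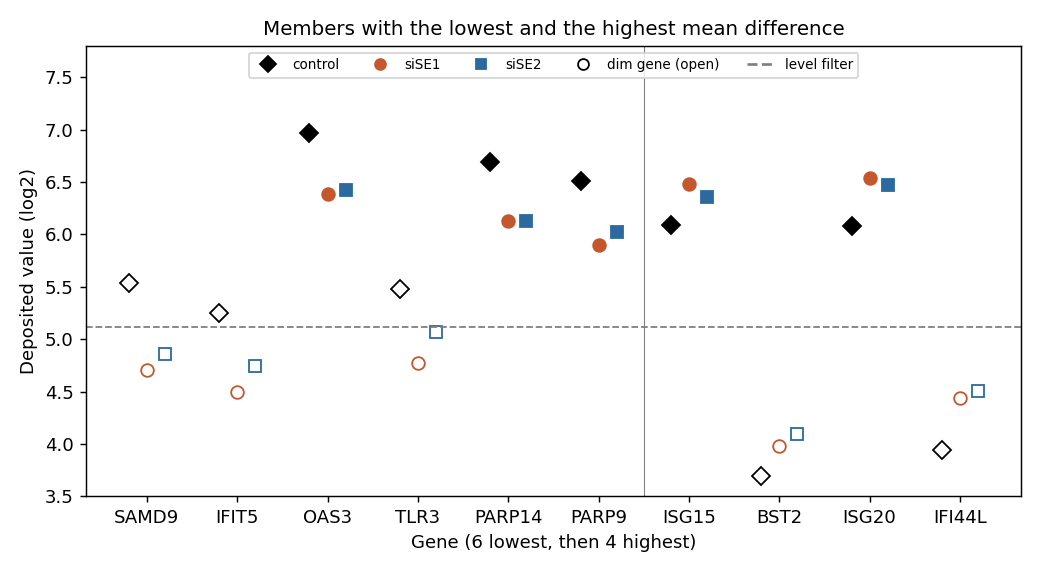
Deposited level (y axis, log2) for control (diamonds), siSE1 (circles) and siSE2 (squares) for the 6 members with the lowest and the 4 with the highest mean difference (x axis). Open symbols are dim genes and the dashed line is the level filter at 5.12. In each of these 10 genes, picked by mean difference, the control lies outside the 2 siRNA arrays. Of all 18417 genes measured, both siRNA arrays read above the control in 39.9% and below it in 36.3%.

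Neither measured transcription factor of the response passed the test. IRF7, which amplifies interferon production, read 6.70, 6.88 and 6.94 on the control, siSE1 and siSE2 arrays (0.21 ± 0.14; limma, adjusted p = 0.479). IRF9, a DNA-binding subunit of the ISRE-binding complex, read 6.43, 6.36 and 6.38 (-0.06 ± 0.14; limma, adjusted p = 0.862). The unadjusted 95% intervals reached 0.53 for IRF7 and 0.26 for IRF9. They take the single control to vary like the siRNA arrays, so they set no bound on a difference between cultures.

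Genes of the ISG15 system lay on both sides of the control. ISG15, the ubiquitin-like modifier, read 6.09, 6.48 and 6.36, with both siRNA arrays above the control by 0.33 ± 0.14 (95% interval 0.01 to 0.66; limma, adjusted p = 0.269). USP18, the protease that removes ISG15 and damps the receptor, read 7.73, 7.58 and 7.25, with both siRNA arrays below the control (-0.31 ± 0.17; limma, adjusted p = 0.369). A second probe set, shared between USP18 and its near-identical pseudogene USP41P, read 8.48, 8.46 and 8.21, so the USP18 signal is uncertain.

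HERC5, the ligase that attaches ISG15, was dim at 4.49, 4.66 and 4.85, above the control on both siRNA arrays. HERC6, its neighbour on chromosome 4, read 6.15, 5.84 and 6.21 (-0.12 ± 0.17; limma, adjusted p = 0.767), with the control between the siRNA arrays. None of these 4 genes was 1.5-fold from the control on either siRNA array, and none of the 3 tested passed.

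Of the remaining 14 antiviral effectors, 11 were dim. IFI6, a mitochondrial and endoplasmic reticulum protein that limits viral replication, was one of the 3 tested: it read 9.29 (control), 9.08 (siSE1) and 8.80 (siSE2). Both siRNA arrays lay below the control, more so siSE2, and the mean lay -0.35 ± 0.16 from it without passing (limma, adjusted p = 0.297). CMPK2, a mitochondrial nucleotide kinase, read 6.25, 6.19 and 6.09 (-0.11 ± 0.14), and IFI27 read 5.46, 5.47 and 5.33 (-0.07 ± 0.15).

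SAMD9, a translation-inhibiting antiviral factor, had the lowest difference of all 38 members. It read 5.53 (control), 4.70 (siSE1) and 4.86 (siSE2). Both siRNA arrays lay below the control by 0.75 ± 0.15 on average (1.69-fold; SE from the fit without the filter; limma, adjusted p = 0.147, the one fit that tested it). Its mean level was 0.09 under the filter. SAMD9L, its paralog and neighbour on chromosome 7, read 3.71, 3.44 and 3.61, a smaller difference of -0.18.

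IFI44L, BST2 and the MX genes were among the 8 of 21 dim members that read above the control on both siRNA arrays. Of all 5525 dim genes measured, 2645 did so. The genes named here were singled out after their values were seen. IFI44L, a widely used marker of interferon exposure, read 3.94, 4.43 and 4.50, with both siRNA arrays above the control by 0.52 ± 0.14 (SE from the fit without the filter; limma, adjusted p = 0.201, the one fit that tested it), while its neighbour IFI44 on chromosome 1 read 3.92, 3.68 and 3.83. BST2, the tetherin that holds virus particles at the cell surface, read 3.69, 3.98 and 4.09. The GTPase genes MX1 (4.84, 5.01 and 4.90) and MX2 (4.01, 4.23 and 4.18) differed by 0.11 and 0.20.

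All dim genes measured had a median of 0.07, and the 21 dim members a median of -0.10. TRIM22, a ubiquitin ligase, read 3.61, 3.65 and 4.05, and XAF1, a promoter of apoptosis, read 4.70, 5.06 and 4.72, each apart from the control with 1 siRNA only. RSAD2 (viperin, which makes a chain-terminating nucleotide) read 4.05, 4.08 and 3.99, and IFI35 read 5.05, 5.0005 and 5.13. RSAD2 and IFI35 had the control between the siRNA arrays, and the IFI35 difference of 0.02 changed sign under some normalizations, down to -0.07. At the level filter, TLR3 and OASL lay just below (each by 0.01) and DHX58 was the nearest member above it (by 0.28).

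**Figure D3:**
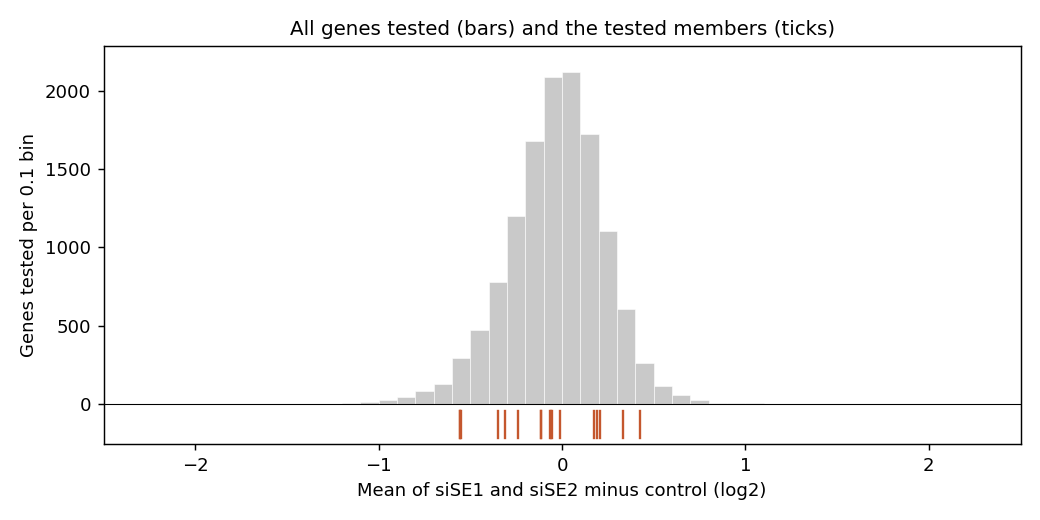
Number of genes tested per 0.1 bin (y axis) against the mean of siSE1 and siSE2 minus control (x axis, log2). Bars are the 12892 genes tested and ticks under the axis are the 17 tested members, which run from -0.56 (OAS3) to 0.42 (ISG20), within the range of the bars.

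The rest of the pathway was measured through 6 lists with 135 genes, of which 93 passed the filter. By limma with adjustment over all genes tested, 0 of the 93 rose (against 0.248% of genes tested) and 0 fell (against 0.714%). At an unadjusted p under 0.05 by limma, 10 of the 93 were higher (against 6.46% of genes tested) and 8 lower (against 11.3%). Of the 135 measured, 64 read above the control on both siRNA arrays (against 39.9%) and 35 below it (against 36.3%). None was 1.5-fold from the control with both siRNAs; with at least 1 siRNA 5 were 1.5-fold higher (against 2.31%) and 1 lower (against 4.35%). Their median was 0.047, beside 0.012 for all genes measured.

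Interferon ligands were mostly dim: 13 of 16 measured lay below the filter on every array. IFNB1, the first interferon made by most cells, read 3.14, 3.15 and 2.94 on the control, siSE1 and siSE2 arrays. IFNL3, an epithelial type of interferon, read 7.21, 7.74 and 7.58 (0.45 ± 0.15; limma, adjusted p = 0.163), and IFNL2 read 5.70, 6.12 and 5.88 (0.30 ± 0.16; limma, adjusted p = 0.343). IFNL1, the only other ligand tested, read 5.97, 5.99 and 5.67 (-0.14 ± 0.17; limma, adjusted p = 0.703), with the control between the siRNA arrays. IFNL2 and IFNL3 are near-identical copies, so their signals cannot be separated with certainty. IFNA10 was dim at 2.58, 3.02 and 3.40, and belongs to a family of similar genes too.

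Receptor and kinase genes were above the filter for 14 of 15 measured. IFNAR1 read 8.10, 8.15 and 8.24 (0.09 ± 0.14) and IFNAR2 read 6.40, 6.12 and 6.49 (-0.09 ± 0.17). JAK1 read 6.71, 6.55 and 6.45 (-0.22 ± 0.14; limma, adjusted p = 0.465), and TYK2 read 7.32, 7.08 and 7.18 (-0.19 ± 0.14). An array level says nothing on whether the JAK1 protein is made or works.

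The gene furthest from the control in that list was IL10RB, a receptor chain used by IFNL proteins and IL10-family cytokines, at 7.20, 6.55 and 6.79 (-0.54 ± 0.16; limma, adjusted p = 0.124). IFNGR2, a chain of the interferon gamma receptor, read 7.60, 7.96 and 7.93 (0.35 ± 0.14). The feedback inhibitor gene SOCS3 differed by 0.27 ± 0.14, and PTPN11, a phosphatase gene, by -0.34 ± 0.15. None of these passed.

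In the list of nucleic acid sensing, 22 of 27 genes were tested, with a median of 0.03. TBK1, the kinase that activates IRF3, read 7.75, 7.34 and 7.44 (-0.36 ± 0.14; limma, adjusted p = 0.239), while IRF3 itself read 7.89, 7.86 and 8.02 (0.05 ± 0.15). MYD88, an adaptor of Toll-like receptors, and TLR9, a DNA sensor, differed by 0.30 ± 0.14 each, and TNFAIP3, an inhibitor of the NF-kB branch, by -0.28 ± 0.14. The 9 genes of double-stranded RNA binding, all tested, had a median of -0.08; ADARB1 and PRKRA, an RNA-editing enzyme and an activator of EIF2AK2, differed by 0.21 ± 0.14 and -0.24 ± 0.15.

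Other interferon-induced genes outside the 39 had a median of 0.10 over 55 genes (34 tested), opposite in sign to the members. Of these 55, 31 read above the control on both siRNA arrays (against 39.9% of all genes measured) and 13 below it (against 36.3%). At an unadjusted p under 0.05 by limma, 6 of the 34 tested were higher (against 6.46% of genes tested) and 4 lower (against 11.3%). IRF1, an early interferon target, read 5.75, 5.78 and 5.89 (0.08 ± 0.14). PNPT1, a mitochondrial RNA exonuclease, and APOBEC3F, a cytidine deaminase, differed by -0.42 ± 0.14 and -0.37 ± 0.14. TRIM38 and TRIM21, ubiquitin ligases, BATF2, a transcription factor, and TNFSF10, the death ligand TRAIL, singled out after their values were seen, differed by 0.60 ± 0.22, 0.42 ± 0.16, 0.41 ± 0.15 and 0.40 ± 0.17, and none of them passed the test (limma, adjusted p from 0.195 to 0.272). The dim genes SP140L and CD274, a chromatin reader and an immune checkpoint ligand, differed by 0.61 and -0.44. Antigen presentation genes had a median of 0.01 over 13 (11 tested), with PSME1, a proteasome activator, at 0.56 ± 0.14 (limma, adjusted p = 0.0937) and B2M, the light chain of class I molecules, at -0.44 ± 0.15 (limma, adjusted p = 0.167). Genes of 1 list thus lay on both sides of the control.

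**Figure D4:**
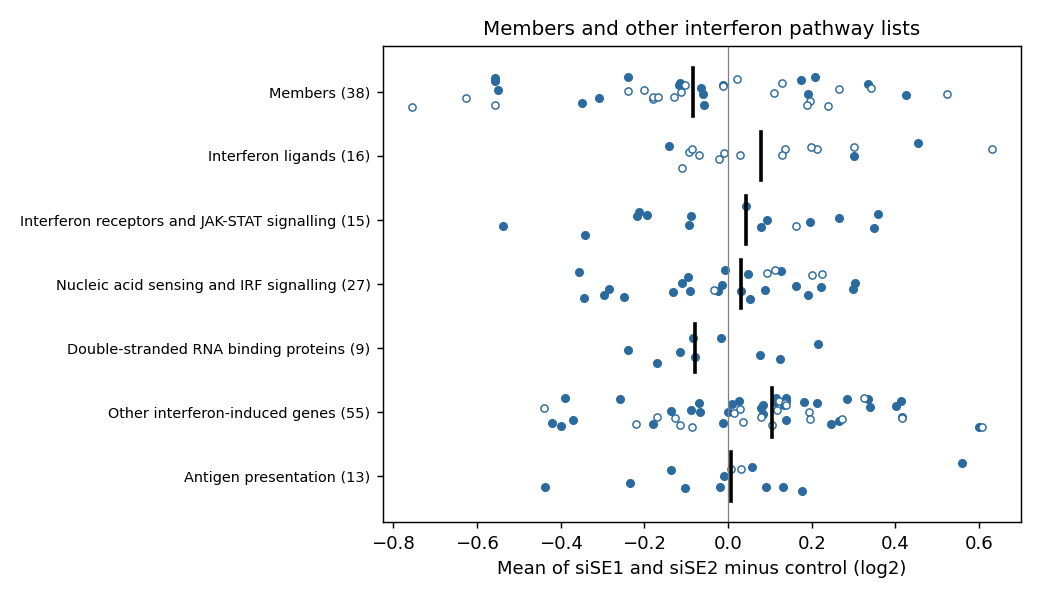
Mean of siSE1 and siSE2 minus control (x axis, log2) for the members and 6 lists of the pathway (y axis, number of genes measured in brackets). Filled points passed the level filter, open points are dim and black bars are medians, from -0.08 for the members and for double-stranded RNA binding proteins to 0.10 for other interferon-induced genes.

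The identity of the cells and the arrays was checked last. KLK3, KLK2, HOXB13, KRT8, KRT18 and STEAP2, markers of prostate luminal cells, read between 9.40 and 11.76 on every array. The other 4 of the 10 luminal markers listed were not among the genes measured. Of blood cell markers 5 of 9 lay below the filter on all arrays, PTPRC among them at 3.17 to 3.22, while LYZ, which encodes lysozyme, read 4.41, 6.09 and 5.11 without passing (limma, adjusted p = 0.0989). The mean level of these 9 was 4.68 for the control, 4.91 for siSE1 and 4.90 for siSE2. The endothelial markers, 3 of 3, were below the filter on every array, with mean levels of 3.82, 4.07 and 4.11. Of fibroblast and stromal markers 5 of 7 lay above the filter on every array, with mean levels of 5.05, 5.13 and 5.11. Both siRNA arrays read above the control for 3 of 3 basal epithelial markers measured and 3 of 3 endothelial markers (against 39.9% of all genes measured). They did so for 6 of 9 blood and 5 of 7 stromal markers, with 0 and 1 below it (against 36.3%). Of the 6 luminal markers, 3 read above it and 3 below. Among the basal markers 1 was 1.5-fold higher with at least 1 siRNA (against 2.31%). LYZ was 1.5-fold higher with both siRNAs (against 0.532%). No basal or stromal marker tested passed the test. Of the 5 plasmacytoid dendritic cell markers listed, 4 were measured, 2 of them above the filter on every array and 2 below it. Both siRNA arrays read above the control for 1 of the 4 and below it for 2. Among these markers TCF4, a transcription factor of many cell types, fell by 0.83 (± 0.14, SE; limma, adjusted p = 0.0378, and 0.124 in the fit without the filter), while CLEC4C was dim at 4.08 to 4.29. The part of other cell types in the members' values was not tested.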

How the data were processed

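The authors deposited 1 table of log2 values, 33297 probe sets on 3 arrays, and, per the submitters' processing notes, used Affymetrix Expression Console. The log2 scale was taken from the values (1.43 to 13.9). For algorithm, background correction and build, nothing is given in the sources used here. Array medians were 5.80 (control), 5.84 (siSE1) and 5.84 (siSE2), and array number limits precision. Genes were named through the platform annotation: 19460 probe sets name 1 gene, 1754 several and 12083 none; 19429 of the 19460 matched a RefSeq gene table by identifier.

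Probe sets of a gene were averaged (18417 genes). Genes with a mean below the 30th percentile (log2 5.12) were set aside as dim, and 12892 were fitted with limma 3.58.1 (lmFit and eBayes, R 4.3.3), chimera siRNA (n = 2) against control (n = 1), two-sided; p-values were adjusted over these 12892 by Benjamini-Hochberg, with calls under 0.05. The single control is taken to vary like the siRNA arrays. SEs are moderated; intervals are unadjusted. The fit was run on simulated data in which the control varied like the siRNA arrays. The changes simulated were larger than that of any member, so the run says nothing on smaller changes. Alternatives covered 3 normalizations, 2 other filters, the highest probe set per gene, 2 other priors, other thresholds and leaving out each siRNA array. Values are given on every array for members above the filter and for dim members 1.5-fold from the control; the further dim members are named to account for all 39. In the pathway lists, values are given for 9 genes named in advance where measured, for any gene called, and for up to 4 a list with the largest smaller change. IFNL1 was added so that every ligand tested is given. The members and lists were chosen with earlier results of these data known.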

Additional observations from a re-analysis of the deposited data

How the results depend on the processing

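No member passed the adjusted threshold of 0.05 in any of the 8 alternative fits by limma, where the lowest adjusted p of a member was 0.0806. At an adjusted p under 0.1 by limma, 3 of the 17 members tested passed (OAS3, PARP9 and PARP14, all lower). Of all 12892 genes tested, 507 passed at that threshold, 364 lower and 143 higher. The count of all genes called moved more: 124 became 189 with quantile normalization, 1 with no filter on dim genes and 35 above the 50th percentile of levels; in the last 2 the set of genes tested differs. The median difference of the tested members was -0.065 beside -0.019 for all genes tested. With quantile normalization it was -0.12 beside -0.0042, with equal array medians -0.11 beside -0.059 and with cyclic loess -0.14 beside -0.015. Above the 50th percentile, where 10 members were tested, it was -0.15 beside -0.053. Equal array medians move every gene's difference by the same step. The members' median ran from -0.12 to -0.069 when 1 siRNA array was left out. No tested member was 1.5-fold from the control with both siRNAs, where 75 of the 12892 genes tested were that much higher and 197 lower. The member count was 1 (PARP14) with equal array medians and 1 (SAMD9) with no filter. It was 4 at a lower fold of 0.32 on the log2 scale (ISG20, OAS3, PARP9 and PARP14). With 1 siRNA array left out it was 0 to 1 (PARP9 with siSE1 alone). For equal array medians, the lower fold and a left-out array, the share of all genes was not computed. Those counts therefore have no background beside them. The single-array difference of RIGI ran from -0.12 to 0.50, that of IFIT1 from -0.54 to 0.061 and that of HERC6 from -0.30 to 0.067. Of 213 member values under other settings, 4 had the opposite sign, in MAVS and IFI35; both lay near 0. Beyond the step from equal array medians and the smaller set of members, the cause of these shifts was not tested. Leaving out an array leaves 1 against 1, so it gives values and no test. No paired analysis was possible because the groups share only 1 replicate number.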
